A study of Drosophila melanogaster with 6 samples.

Results

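The genes described here are 9 genes of folate one-carbon, purine, serine, methionine and amide synthesis in the fruit fly: Nmdmc, Shmt, aay, Paics, Gart, Sam-S, Cth, AsnS and Gs2. They were chosen by name, as array rows annotated to exactly 1 of these genes, and all 9 were found among 13402 genes with such a row. Each had a single row, so no choice between rows was needed, and all 9 were among the 10051 genes left after the dimmest 25% of genes were set aside. Whole larvae of the strain w1118 were raised for 5 days from the egg on a semi-purified diet to which palm fruit juice had been added (4 ml, per the labels) or on that diet without juice. Palm fruit juice is an aqueous, phenolic-rich extract of oil palm fruit. Both groups carry the white mutation of w1118, each had 3 arrays, and each array held RNA pooled from 3 to 4 larvae whose sex the labels do not give. Whether each pool came from a separate culture is also not stated, so the spread between arrays may leave out differences between cultures. It may also in part be technical.

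Folate one-carbon metabolism takes single carbon units from serine, carries them on tetrahydrofolate, and hands them to the building of purine rings, of thymidylate and, through methionine, of the methyl donor S-adenosylmethionine. Purine synthesis also consumes glycine, glutamine and aspartate, which ties it to serine and amide metabolism. In growing larvae these routes feed nucleotide and protein synthesis. Several of their genes are known targets of the transcription factors ATF4, which answers amino acid stress, and Myc, which promotes growth.

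Mean expression was lower in juice larvae than in control larvae for 7 of the 9 genes (77.8%), and higher for Sam-S and aay. Among all tested genes 55.1% had a lower and 44.9% a higher mean in juice larvae. The median log2 difference of the 9 genes was -0.41, palm fruit juice minus control, and that of all tested genes was -0.03. The largest differences belonged to Nmdmc, at -0.73, and Gs2, at -0.58. These 2 of 9 genes (22.2%) differed by at least 0.5 on the log2 scale, as did 7.64% of all tested genes. No difference passed the test. By limma, 0 of the 9 genes reached adjusted p under 0.05, where 0% of all tested genes did, and 0 of the 9 reached unadjusted p under 0.05, where 4.68% did. The test without moderation also called 0 of the 9 at either threshold. The juice arrays lay wholly apart from the control arrays in 0 of the 9 genes, against 10.0% of all tested genes. In whole larvae, fewer cells of a type and less RNA per cell cannot be told apart.

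**Figure D1:**
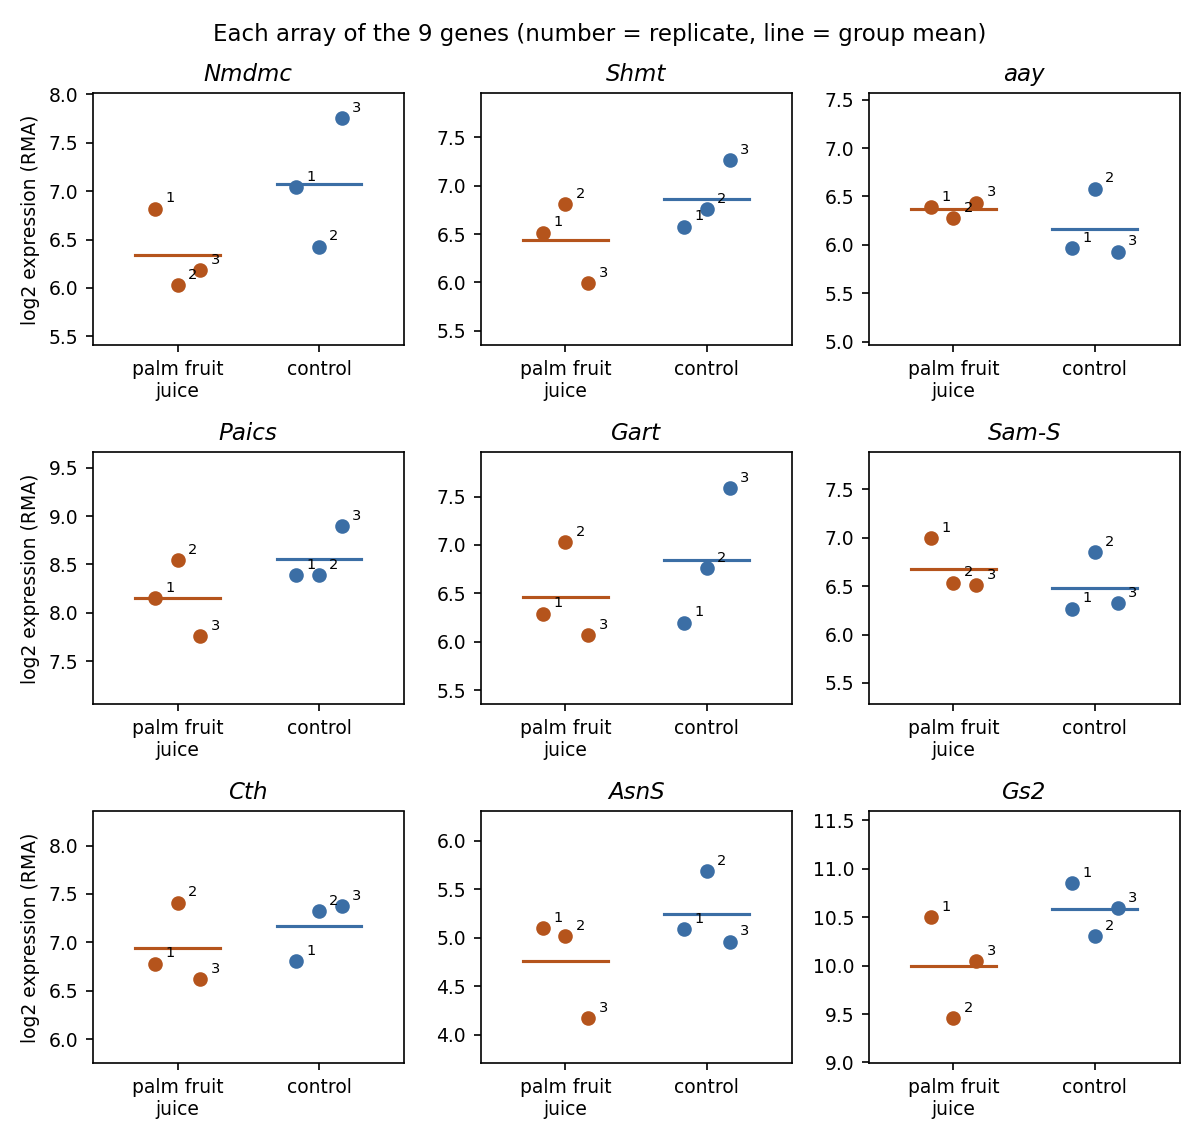
Expression of the 9 genes in each array, as log2 RMA values, with palm fruit juice on the left and control on the right of each panel; points are arrays, numbers are replicates and lines are group means, and every panel spans the same log2 range. The groups overlap in all 9 panels, and palm fruit juice replicate 3 is the lowest array for Shmt, Paics, Gart, Cth and AsnS.

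Arrays within a group differed in these genes, with a median pooled within-group SD of 0.39 on the log2 scale over the 9. The SD over the 6 arrays also includes any difference between the groups. It exceeded the median of all tested genes, 0.23 on the log2 scale, for 9 of 9 genes. It lay above the upper quartile of all tested genes for 7 of them. Palm fruit juice replicate 3 was the lowest array for 5 of the genes, and control replicate 3 was the highest for 4. Over the whole series, palm fruit juice replicate 2 and control replicate 1 stood apart, with 440 genes in the juice array and 536 in the control array lying 2-fold or more away from the average of the remaining arrays, where the other arrays had 54 to 178. Markers fixed for fat body (2 genes tested), muscle (4), nervous system (5), midgut (7), cuticle (2), salivary gland (6), haemocytes (5) and testis (5) were measured above the dim limit.

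Nmdmc encodes the mitochondrial enzyme that oxidises methylene-tetrahydrofolate and opens the resulting ring, as a dehydrogenase and cyclohydrolase. Its log2 values were 6.82, 6.03 and 6.18 in palm fruit juice replicates 1 to 3, against 7.04, 6.43 and 7.75 in control replicates 1 to 3. Palm fruit juice replicates 2 and 3 lay below every control array, while juice replicate 1 lay above control replicate 2, so the groups overlapped. Nmdmc averaged 6.35 ± 0.42 in juice larvae and 7.07 ± 0.66 in control larvae (SD, n = 3 each), a difference of -0.73 ± 0.36 (limma's SE, 95% interval -1.57 to 0.12), or 1.66-fold lower (limma, adjusted p = 0.931). Control replicate 3, the highest array, carried much of it: without that array the difference was -0.39. It was -1.05 without control replicate 2 and -0.96 without palm fruit juice replicate 1. The cytosolic counterpart pug, which joins the same activities to a formate ligase, averaged 6.19 ± 0.30 in juice larvae and 6.22 ± 0.17 in control larvae. Its difference of -0.02 ± 0.19 had an interval of -0.47 to 0.42. The sign was kept in 12 of 16 alternative settings, several of which cannot change a difference.

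Genes that respond to ecdysone, the moulting hormone, were listed as markers of developmental timing. Among them, Eip74EF and Eip75B had no usable row. Of 8 tested, 7 had a lower mean in juice larvae, where 55.1% of all tested genes did. The other, ftz-f1, was higher in every juice array (4.85, 4.28 and 4.21) than in any control array (4.17, 3.99 and 3.65). In 4 of the lower genes every juice array lay below every control array. For all tested genes the groups did not overlap, in either direction, in 10.0%. By limma, 4 of the 8 were at unadjusted p under 0.05, where 4.68% of all tested genes were, and 0 at adjusted p under 0.05. The list was chosen with earlier results of these data known, so these counts only describe it. The mean log2 level of the 8 genes was 6.51, 5.31 and 6.08 in palm fruit juice replicates 1 to 3, against 6.76, 6.51 and 6.97 in control replicates 1 to 3. The order of the 6 arrays from lowest to highest was the same for Nmdmc as for this list, with palm fruit juice replicates 2 and 3 at the bottom, control replicate 2 and juice replicate 1 (nearly level in the list) in the middle, and control replicates 1 and 3 at the top. Gs2 stood at the same rank as the list in 4 of 6 arrays, and the other genes in 0 to 2. This match was picked out after the values were seen, and its part in the Nmdmc difference was not tested.

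Shmt encodes serine hydroxymethyltransferase, which splits serine into glycine and a one-carbon unit bound to folate. On the log2 scale it measured 6.51, 6.81 and 5.99 in palm fruit juice replicates 1 to 3, against 6.58, 6.76 and 7.26 in control replicates 1 to 3. Juice replicates 1 and 3 lay just below and well below the control range, and juice replicate 2 lay inside it. The means were 6.44 ± 0.41 in juice larvae and 6.87 ± 0.36 in control larvae (SD, n = 3 each), a difference of -0.43 ± 0.26 (SE, interval -1.05 to 0.20, limma's adjusted p = 0.931). The difference was -0.20 without palm fruit juice replicate 3, -0.23 without control replicate 3, and -0.76 without the pair of arrays that stood apart in the whole series.

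The gene aay encodes phosphoserine phosphatase, the last step of serine synthesis. Its log2 values were 6.39, 6.28 and 6.44 in palm fruit juice replicates 1 to 3, against 5.97, 6.58 and 5.93 in control replicates 1 to 3. All 3 juice arrays lay inside the control range and close together, and the mean was higher in juice larvae by 0.21 ± 0.20 (SE, interval -0.26 to 0.68, limma's adjusted p = 0.931). The difference was 0.09 without control replicate 3 and 0.42 without control replicate 2. The list of serine genes held a further pair, CG6287 and CG11899, to which the gene table gives no name. CG11899 had log2 values of 4.42, 5.08 and 4.80 in palm fruit juice replicates 1 to 3, against 5.04, 5.26 and 5.91 in control replicates 1 to 3. Its difference of -0.64 ± 0.27 was at unadjusted p = 0.0495 by limma (adjusted p = 0.931). It ran from -0.97 to -0.38 over 16 alternative settings and was at unadjusted p under 0.05 in only 6 of them. CG6287 differed by -0.33 ± 0.23, by -0.14 without control replicate 3 and by -0.65 without control replicate 1 and juice replicate 2. The differences of aay and of this pair thus had opposite signs, a contrast that was not tested.

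In purine synthesis, Paics carries out the carboxylation and the aspartate-joining steps of the growing ring, and Gart holds 3 activities of the earlier steps in 1 protein, including the first transfer of a formyl group from folate. Paics had log2 values of 8.15, 8.55 and 7.76 in palm fruit juice replicates 1 to 3, against 8.39, 8.39 and 8.90 in control replicates 1 to 3. Juice replicates 1 and 3 lay below all control arrays and juice replicate 2 above 2 of them. Its means of 8.15 ± 0.39 in juice larvae and 8.56 ± 0.29 in control larvae (SD, n = 3 each) differed by -0.41 ± 0.24 (SE, interval -0.98 to 0.17, limma's adjusted p = 0.931), and by -0.21 without palm fruit juice replicate 3, -0.24 without control replicate 3 and -0.69 without control replicate 1 and juice replicate 2.

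Gart had log2 values of 6.29, 7.03 and 6.06 in palm fruit juice replicates 1 to 3, against 6.20, 6.76 and 7.58 in control replicates 1 to 3. Only palm fruit juice replicate 3 lay below the control range. The difference of -0.39 ± 0.39 (SE, interval -1.30 to 0.53, limma's adjusted p = 0.936) rested on control replicate 3, without which it was -0.02, and it was -0.995 without control replicate 1 and juice replicate 2. Shmt, Paics and Gart ordered the arrays alike at both ends: palm fruit juice replicate 3 was lowest, and juice replicate 2 and control replicate 3 were the top 2 arrays for each.

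The other purine synthesis genes had a median difference nearer to 0. Of 9 listed, 8 were tested, 6 with a lower and 2 with a higher mean in juice larvae (median difference -0.10). Adss, adenylosuccinate synthetase, which turns inosine monophosphate towards adenosine monophosphate, lay higher in every juice array: 6.57, 7.23 and 6.62 in palm fruit juice replicates 1 to 3, against 6.08, 6.26 and 6.10 in control replicates 1 to 3. Its difference of 0.66 ± 0.20 (SE) was at unadjusted p = 0.0139 and adjusted p = 0.931 by limma, and stayed between 0.42 and 0.78 over 16 alternatives, at unadjusted p under 0.05 in all 16. Prps, which makes the ribose phosphate donor of the pathway, lay lower in every juice array (9.85, 9.23 and 9.79) than in any control array (9.90, 10.08 and 9.99), with a difference of -0.37 ± 0.19 (limma, adjusted p = 0.931). That difference was -0.17 without palm fruit juice replicate 2. Adsl, adenylosuccinate lyase, and Prat2, an amidophosphoribosyltransferase of the first committed step, differed by -0.35 ± 0.24 and -0.15 ± 0.26, and Adsl by -0.19 without palm fruit juice replicate 3. In salvage and breakdown, Aprt, which recovers adenine, was higher in all 3 juice arrays (5.60, 5.40 and 5.59) than in the controls (5.23, 5.27 and 5.28), a difference of 0.27 ± 0.13 (limma, adjusted p = 0.931), and ry, xanthine dehydrogenase, differed by 0.12 ± 0.25.

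In the methionine cycle, Sam-S makes S-adenosylmethionine from methionine and ATP. Its 6 arrays gave log2 values of 6.996, 6.54 and 6.51 in palm fruit juice replicates 1 to 3, against 6.27, 6.85 and 6.32 in control replicates 1 to 3. Palm fruit juice replicate 1 was above the control range, and the others were within it. The mean was higher in juice larvae by 0.20 ± 0.22 (SE, interval -0.31 to 0.71, limma's adjusted p = 0.938), a difference that was 0.04 without palm fruit juice replicate 1 and 0.39 without control replicate 2.

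Cth encodes cystathionine gamma-lyase, which releases cysteine at the end of transsulfuration and was earlier named Eip55E, as an ecdysone-induced protein. Its log2 values were 6.78, 7.41 and 6.62 in palm fruit juice replicates 1 to 3, against 6.80, 7.32 and 7.37 in control replicates 1 to 3. The juice arrays lay on both sides of the control range, with replicates 1 and 3 below it and replicate 2 above it. The difference was -0.23 ± 0.26 (SE, interval -0.83 to 0.37, limma's adjusted p = 0.940). It was -0.07 without palm fruit juice replicate 3 and -0.65 without control replicate 1 and juice replicate 2. Of 8 other genes listed for the methionine cycle, transsulfuration and glutathione, 5 had a higher and 3 a lower mean in juice larvae (median difference 0.02). Gclm, the modifier subunit of the first enzyme of glutathione synthesis, lay higher in every juice array, with a difference of 0.42 ± 0.19 (limma, adjusted p = 0.931), or 0.25 without juice replicate 2. Gclc, its catalytic partner, differed by 0.15 ± 0.18. Ahcy, which clears S-adenosylhomocysteine, and its relative AhcyL2 differed by 0.13 ± 0.19 and -0.15 ± 0.23.

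Gs2, a cytosolic glutamine synthetase, adds ammonia to glutamate. On the log2 scale it measured 10.50, 9.46 and 10.04 in palm fruit juice replicates 1 to 3, against 10.85, 10.30 and 10.60 in control replicates 1 to 3. Juice replicates 2 and 3 lay below every control array and juice replicate 1 above control replicate 2. The means were 10.00 ± 0.52 in juice larvae and 10.58 ± 0.28 in control larvae (SD, n = 3 each), a difference of -0.58 ± 0.28 (SE, interval -1.24 to 0.08, limma's adjusted p = 0.931). Palm fruit juice replicate 2 set much of its size: the difference was -0.31 without that array and -0.18 without control replicate 1 as well. The mitochondrial paralog Gs1 differed by -0.12 ± 0.17, with values of 9.27, 9.52 and 9.11 in palm fruit juice replicates 1 to 3, against 9.43, 9.22 and 9.61 in control replicates 1 to 3. The Gs1 difference was -0.23 without juice replicate 2 and -0.03 without control replicate 3. The intervals of both paralogs include 0, and the contrast between them was not tested.

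AsnS encodes asparagine synthetase, which moves the amide of glutamine onto aspartate. Across the arrays it had log2 values of 5.10, 5.02 and 4.17 in palm fruit juice replicates 1 to 3, against 5.09, 5.69 and 4.96 in control replicates 1 to 3. Palm fruit juice replicate 3 alone lay below the control range. The difference of -0.48 ± 0.30 (SE, interval -1.19 to 0.23, limma's adjusted p = 0.931) was -0.19 without that array and -0.26 without control replicate 2. Of 8 other genes of glutamate, amide and proline metabolism, 5 had a higher and 3 a lower mean in juice larvae (median difference 0.10). Got2 and Got1, the mitochondrial and cytosolic aspartate aminotransferases, differed by 0.36 ± 0.26 and 0.19 ± 0.22, and P5CS, the entry enzyme of proline synthesis, by 0.12 ± 0.23.

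**Figure D2:**
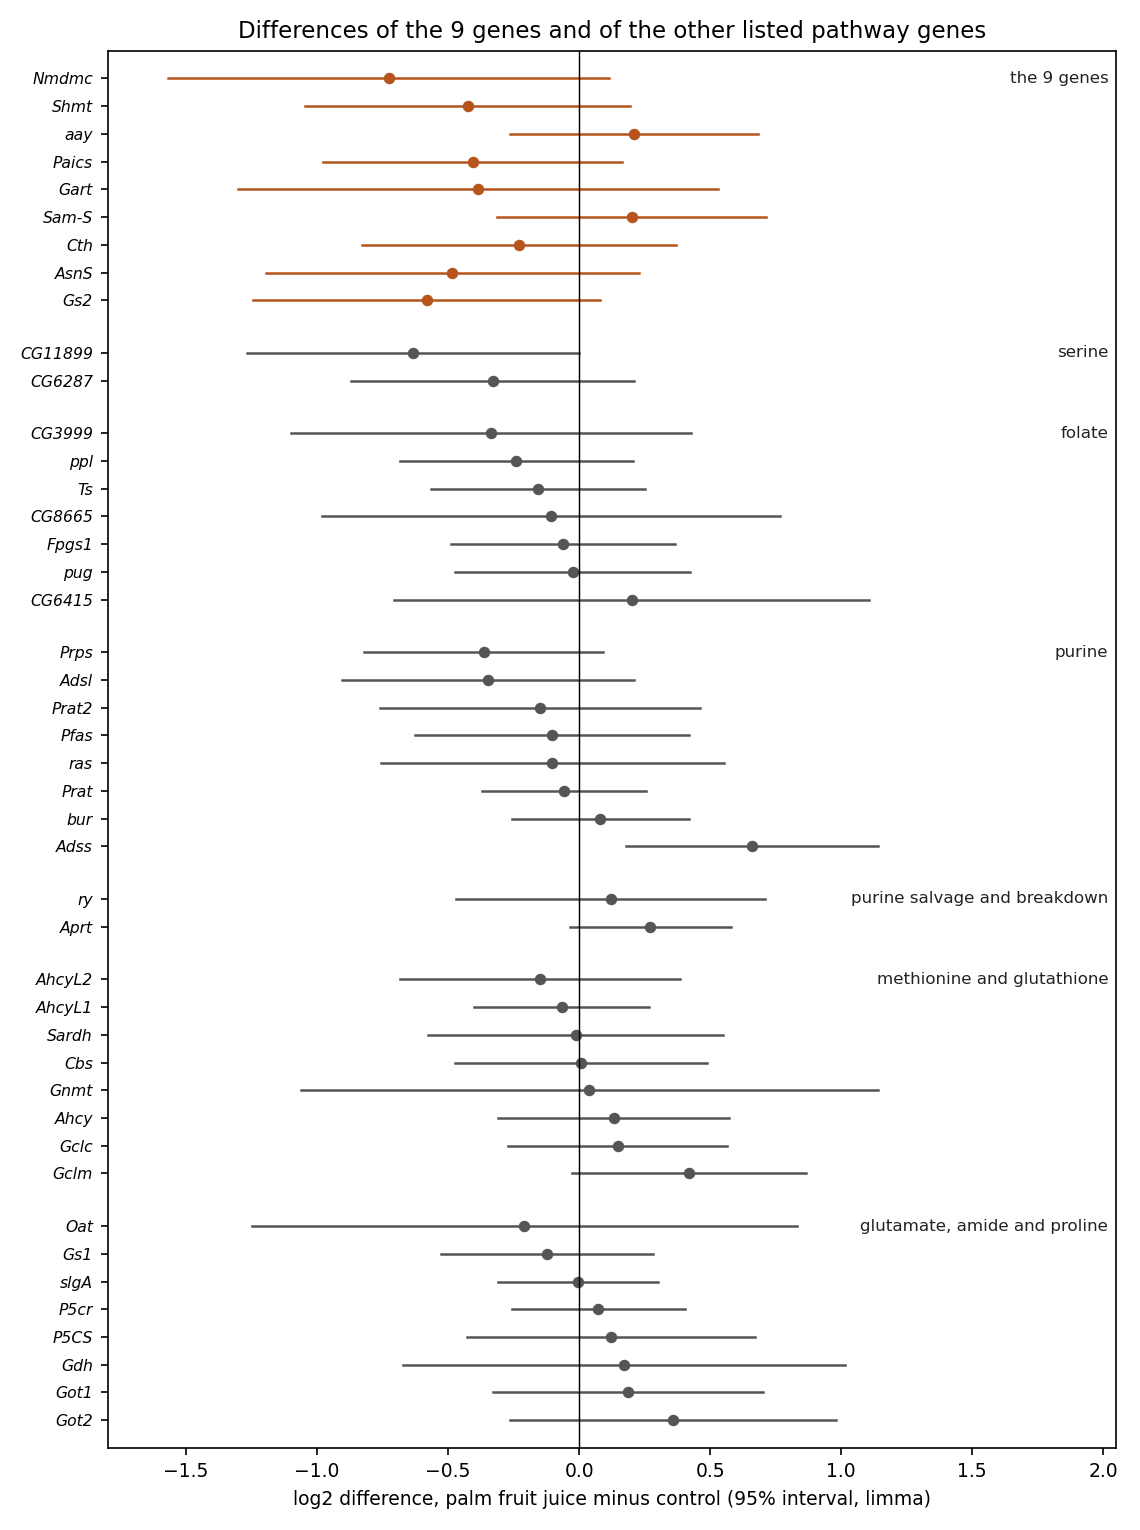
Log2 differences, palm fruit juice minus control, of the 9 genes (orange, top) and of the 35 other tested genes of the same pathways (grey), with limma's 95% intervals as lines. All 9 intervals at the top include 0, and among the grey genes the interval of Adss lies above 0 and that of CG11899 just below it.

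Across the listed pathways, 40 further genes were named, 36 had a row of their own and 35 were tested. Of these, 20 had a lower mean in juice larvae (57.1%, against 55.1% of all tested genes) and 15 a higher one, with a median difference of -0.02. At unadjusted p under 0.05 there were 2 of 35 (5.71%, against 4.68% of all tested genes), 1 in each direction, and the groups did not overlap in 4 (11.4%, against 10.0%). These shares are close to those of all tested genes. In the folate list, 6 of 7 tested genes had a lower mean (median difference -0.11), and none was at unadjusted p under 0.05 by limma. Its ppl, a protein of the glycine cleavage system of the fat body, differed by -0.24 ± 0.19 (-0.06 without palm fruit juice replicate 3), the thymidylate synthase gene Ts by -0.16 ± 0.17, and CG3999 and CG6415, unnamed in the gene table, by -0.34 ± 0.32 and 0.20 ± 0.39. The sign of CG3999 turned without palm fruit juice replicate 3, to 0.02.

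Among regulators, the fly ATF4 gene crc measured 9.14, 9.38 and 9.14 in palm fruit juice replicates 1 to 3, against 9.30, 9.25 and 9.20 in control replicates 1 to 3, a difference of -0.03 ± 0.14 (interval -0.35 to 0.29). The sign was kept in 13 of 16 alternative settings, several of which cannot change a difference. Gcn2 and PEK, the kinases that raise ATF4 translation, differed by -0.21 ± 0.25 and 0.15 ± 0.14. The Myc antagonist Mnt differed by -0.35 ± 0.28. Myc itself had no usable row, so its expression was not measured here. Of 5 regulators tested, none was at unadjusted p under 0.05 by limma, where 4.68% of all tested genes were. So few genes make this count say little. In the list of DNA replication and cell cycle genes, 5 of 7 tested had a higher mean and the median difference was 0.07. RnrL, the large subunit of ribonucleotide reductase, differed by 0.10 ± 0.17, and the replicative helicase genes Mcm5, Mcm6 and Mcm2 by 0.07 ± 0.14, 0.12 ± 0.25 and 0.08 ± 0.23.

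**Figure D3:**
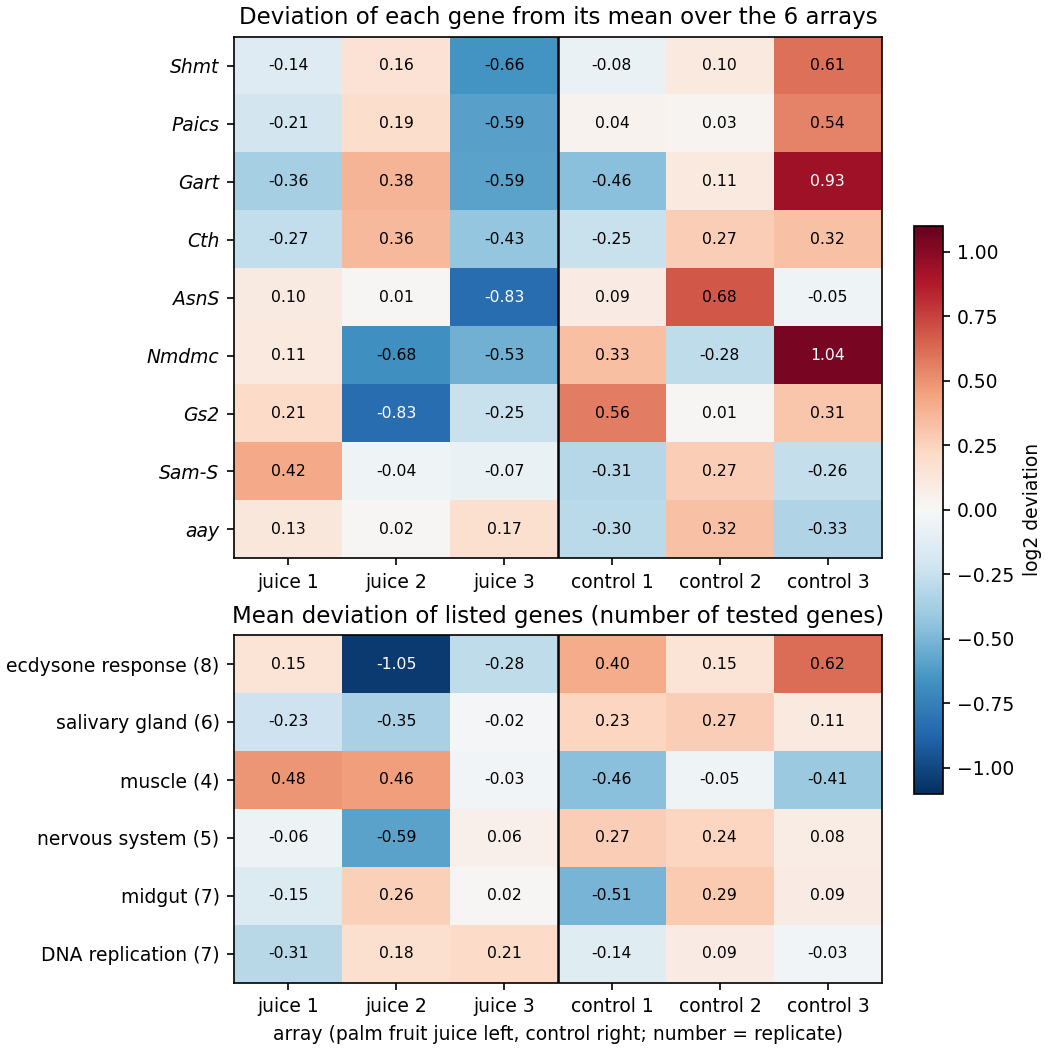
Log2 deviation of each of the 9 genes from its mean over the 6 arrays (upper panel) and mean deviation of the tested genes of 6 lists (lower panel), with palm fruit juice arrays left and control arrays right of the line. Shmt, Paics and Gart are lowest in juice replicate 3 and highest in control replicate 3, and Nmdmc and the ecdysone response list are lowest in juice replicate 2 and highest in control replicate 3.

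Marker lists of other tissues also differed between arrays, given here as the mean log2 deviation of each list in replicates 1 to 3. The 4 muscle genes, all with a higher mean in juice larvae, lay at 0.48, 0.46 and -0.03 in the juice arrays and at -0.46, -0.05 and -0.41 in the control arrays. The 2 cuticle genes, Lcp9 and Cpr47Ec, also both higher, lay at 2.53, 2.72 and -0.41 in the juice arrays and at -1.61, -0.84 and -2.39 in the control arrays. Both were listed knowing that they differed in these arrays, and Lcp1 to Lcp4, also listed, had no usable row. Cpr47Ec measured 8.49, 8.56 and 3.30 in juice replicates 1 to 3, against 3.30 in control replicate 2, its highest control array. Juice replicate 3 thus stood apart in this list through Lcp9, at 10.48 against 9.62 in control replicate 2. The 6 salivary gland genes, all with a lower mean, lay at -0.23, -0.35 and -0.02 in the juice arrays and at 0.23, 0.27 and 0.11 in the control arrays. The 2 fat body genes, both lower, lay at -0.12, -0.02 and -0.13 in the juice arrays and at 0.01, 0.12 and 0.15 in the control arrays. In all 4 of these lists the juice arrays lay wholly to one side of the control arrays. So did the 5 nervous system genes, 4 of them lower, at -0.06, -0.59 and 0.06 in the juice arrays and 0.27, 0.24 and 0.08 in the control arrays. The gap was narrow for muscle (-0.03 against -0.05) and for the nervous system (0.06 against 0.08). All these lists were chosen with earlier results of these data known. How often means of other gene lists separate the groups was not computed. Gene by gene, the groups did not overlap in 2 of 4 muscle, 2 of 2 cuticle and 2 of 6 salivary gland genes. The same held for 1 of 2 fat body and 2 of 5 nervous system genes. For all tested genes the share was 10.0%. The 5 testis genes, all lower, lay at -0.40, -0.10 and -0.28 in the juice arrays and at 1.18, -0.48 and 0.08 in the control arrays, with control replicate 1 far above the rest. For midgut (5 of 7 higher) the juice deviations of -0.15 to 0.26 fell within the control range of -0.51 to 0.29, and for haemocytes (3 of 5 higher) those of -0.15 to 0.07 fell within -0.19 to 0.24. RMA values have no zero, so no marker is at 0 on this scale. The part of these tissues in the differences of the 9 genes was not tested.

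Set beside the mean profile of the 9 genes, each scaled to its own SD, the most alike of 10042 other tested genes over the 6 arrays were SWIP (Pearson r = 0.972), Npc2e (0.966), Sfxn1-3 (0.966), Enoph (0.960) and Spn88Eb (0.957). They were taken as the highest of all correlations over arrays that share a common normalization, so the values describe likeness only. In this profile palm fruit juice replicate 3 was lowest, at -0.89, and control replicates 3 and 2 were highest, at 0.60 and 0.49. The profile averages genes that are unlike each other. Pairs among the 9 had Pearson r from 0.983 (Shmt and Paics) to -0.744 (Nmdmc and aay) over the 6 arrays. Npc2e, a member of the Npc2 family of sterol-binding proteins, differed by -0.53 ± 0.33 (limma, adjusted p = 0.931), and the sideroflexin gene Sfxn1-3 by -0.17 ± 0.15.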

How the data were processed

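The authors deposited 1 log2 expression value for each row of each array. Per the submitters' processing notes, the authors used RMA and Affymetrix Expression Console 1.4.0.38; per the labels' protocols, biotinylated cDNA was made from 100 ng of total RNA. How these steps were ordered is not given in the sources used here. RMA would remove much of any shift common to all transcripts. Of 16322 rows, 13441 had 1 gene in the platform annotation, 555 had several and 2326 had none. Of the rows with 1 gene, 13064 were matched by identifier to a gene table of Release 6 plus ISO1 MT, used for names only. The row with the highest mean was kept per gene, and the 25% of genes with the lowest mean (cut at a log2 value of 2.63) were set aside. The groups were then fitted in limma 3.58.1 (lmFit, eBayes; R 4.3.3) without covariates, two-sided, with Benjamini-Hochberg adjustment over all 10051 genes; SE and 95% intervals are moderated. The fit was tested on simulated data. The number of arrays limits the precision.

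The 9 genes and the lists were chosen with earlier results of these data known. Named genes were the 9, up to 4 per other list with the smallest p, CG6287, CG11899, Gs1, pug and crc, and the 5 most alike. Settings varied were arrays left out, the replicate number as a block, the dim filter, normalization, variance model and rows per gene.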

Additional observations from a re-analysis of the deposited data

How the results depend on the processing

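All 9 genes kept the sign of their difference in all 16 alternative settings, and 0 of the 9 reached adjusted p under 0.05 by limma in any (range 0.668 to 0.999). The replicate block, the dim filter, the variance trend, the lack of moderation and the mean of a gene's rows left each difference unchanged. A sign could therefore change only with arrays left out, array weights or another normalization. The count of the 9 with a higher mean in juice larvae stayed at 2, also with each array left out. Their median difference ran from -0.57 (without palm fruit juice replicate 2) to -0.19 (without juice replicate 3) with 1 array left out, was -0.23 without control replicate 3, -0.61 with array weights, and -0.65 with control replicate 1 and juice replicate 2 both left out. At unadjusted p under 0.05 there were 2 of the 9 without juice replicate 1 (Nmdmc and Gs2), 1 without juice replicate 2 (Paics), 2 without control replicate 2 (Nmdmc and aay), 2 with array weights (Shmt and Paics) and 4 without control replicate 1 and juice replicate 2 (Shmt, Paics, Gart and Cth). Of all 10051 tested genes, 750, 358, 573, 571 and 454 were at that threshold in the same settings, in the same order. For those 4 genes juice replicate 2 was the highest juice array. Control replicate 1 was their lowest control array, or for Paics nearly so. Leaving out this pair therefore widened their differences by construction. The count over all genes at unadjusted p under 0.05, 470, had its lowest value, 181, with control replicate 3 left out and its highest, 750, with palm fruit juice replicate 1 left out. Of the 470, 269 were higher and 201 lower in juice larvae, against 340 and 139 after quantile normalization and 363 and 109 with equal array medians. Without palm fruit juice replicate 3, 4 genes passed adjusted p under 0.05, none of them among the 9. Deviations of same-numbered arrays correlated at -0.11, -0.07 and -0.08, and those of unlike-numbered arrays at -0.108 to 0.175. Whether same-numbered arrays shared a culture or batch was not tested. With the replicate number as a block, 484 genes were at unadjusted p under 0.05 by limma, Gs2 among them. The causes of these shifts were not tested. Signal over background could not be judged from the deposited values.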
